A study of Mus musculus with 6 samples.

Results

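Transcripts of 10 genes of the insulin-like growth factor (IGF) axis were followed in cells labelled as primary mouse vascular smooth muscle cells, which form the muscular layer of blood vessels. The 10 genes were listed by name and matched by Ensembl ID, 10 of 56393 in the count table. They are the ligand gene Igf1, the receptor genes Igf1r and Insr, the binding protein genes Igfbp2, Igfbp3, Igfbp4, Igfbp5, Igfbp6 and Igfbp7, and Pappa, which encodes a protease of binding proteins. RNA sequencing compared 3 libraries of Nono-knockout cells (KO) with 3 libraries of wild-type cells (WT). The protein NONO binds nucleic acids and is a component of paraspeckles, bodies in the nucleus; by its title the study is about vascular calcification. Cells of both genotypes grew in serum-containing medium, which itself brings growth factors, and received no other treatment. How the knockout was made, whether the KO cells are 1 clone, and the strain, sex and age of the mice are not stated by the labels.

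IGF1 is a secreted hormone and local growth factor that acts through the receptor tyrosine kinase IGF1R, a close relative of the insulin receptor INSR. Secreted IGF binding proteins hold IGFs with high affinity, keep them from the receptor or carry them to it, and are cut by proteases such as PAPP-A, the product of Pappa, to release the ligand. In smooth muscle cells IGF1 is known as a survival, growth and migration signal.

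Promoter windows are shown for 4 genes: the ligand, its receptor, and the binding proteins with the highest level (Igfbp4) and with the largest fold rise (Igfbp3). Each is the stretch of 250 bases before the annotated start, read 5′ to 3′ on the strand of the gene, from RefSeq on build GRCm38.p6. The deposited values were made on GRCm39, so these coordinates belong to the sequences only. The windows lie at chr10:87860861-87861110 (plus strand), chr7:67952007-67952256 (plus strand), chr11:99040994-99041243 (plus strand) and chr11:7213924-7214173 (minus strand). Capitals mark matches on either strand to any of 4 motifs. The GC box was searched as GGGCGG, the letters bound by Sp1-type factors. For the TATA box of core promoters the search used TATAAA. The core site of FoxO factors was taken as GTAAACA. As E box, a site of basic helix-loop-helix factors, CACGTG was used.
Igf1: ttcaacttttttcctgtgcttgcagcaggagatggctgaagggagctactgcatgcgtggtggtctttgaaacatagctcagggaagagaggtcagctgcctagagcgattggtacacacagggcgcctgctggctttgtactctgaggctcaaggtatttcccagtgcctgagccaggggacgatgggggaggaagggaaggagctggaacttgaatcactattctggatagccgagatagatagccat
Igf1r: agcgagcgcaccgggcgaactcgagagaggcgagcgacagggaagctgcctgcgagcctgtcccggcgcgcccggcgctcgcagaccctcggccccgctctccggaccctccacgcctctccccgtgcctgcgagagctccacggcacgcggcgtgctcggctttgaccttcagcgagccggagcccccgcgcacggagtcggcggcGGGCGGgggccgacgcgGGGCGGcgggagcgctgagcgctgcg
Igfbp4: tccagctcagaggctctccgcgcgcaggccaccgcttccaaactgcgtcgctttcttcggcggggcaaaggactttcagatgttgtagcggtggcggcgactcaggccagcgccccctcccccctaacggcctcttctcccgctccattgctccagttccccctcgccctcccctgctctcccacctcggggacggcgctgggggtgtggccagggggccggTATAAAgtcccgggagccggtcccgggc
Igfbp3: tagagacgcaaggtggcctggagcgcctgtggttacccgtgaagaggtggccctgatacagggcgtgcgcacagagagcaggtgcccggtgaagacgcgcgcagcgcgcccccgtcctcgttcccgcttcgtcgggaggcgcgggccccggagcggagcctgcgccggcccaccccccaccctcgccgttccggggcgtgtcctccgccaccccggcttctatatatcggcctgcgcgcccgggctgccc
The Igf1 and Igfbp3 windows held none of the 4 motifs, Igf1r held 2 GC boxes and Igfbp4 held 1 TATA box. No marked motif overlapped another. Of all 32851 windows of this length in the table, 32.7% held a GC box, 12.4% a TATA box, 3.17% a FoxO core and 6.02% an E box. CpG frequency differed among the windows shown. The ratio of observed to expected CpG was 0.3 in the Igf1 window, 1.12 in Igf1r, 0.75 in Igfbp4 and 0.96 in Igfbp3, against a median of 0.37 over all windows. Over the 8 genes of the set with a window, 3 of 9 windows held a GC box and 2 held a TATA box. A match or its absence describes these letters only.

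Nono transcript was lower in every KO library, with 55.97, 54.8 and 51.1 CPM (counts scaled to library size with TMM) in KO against 523, 502 and 519 CPM in WT. Library totals lay between 56529170 and 61670083 counts. Counts of any 2 libraries with the same genotype gave a chi-square of 22.6 to 34.8 per degree of freedom, well above sampling noise. Such an excess may be technical and does not show that the libraries are independent. Each was used as its own replicate. The 4 Y-linked genes Eif2s3y, Kdm5d, Uty and Ddx3y together reached 149.9 to 163.3 CPM in KO and 0 to 0.0795 CPM in WT, so the origin of the cells and the genotype cannot be told apart. The smooth muscle genes Myh11 and Cnn1 were at most 0.436 and 3.95 CPM in KO and at most 0.734 and 0.0636 CPM in WT, and Myocd was at 0 counts in KO. Marker tallies are read beside all tested genes, of which 69.3% were called, 35.1% higher and 34.2% lower in KO. Of 10 smooth muscle markers 5 were higher and 4 lower. Their summed level was 249.9 to 252.5 CPM in KO and 74.1 to 89.2 CPM in WT. Most of the KO sum was Acta2 (161 CPM in KO, 16.4 CPM in WT). Smtn (58.1 CPM in KO, 47.8 CPM in WT), Tagln (17.5-fold), Lmod1 (5.32-fold) and Cnn1 were higher too. Des (0.848 CPM in KO, 4.29 CPM in WT), Mylk (3.91 CPM in KO, 8.14 CPM in WT), Synpo2 and Myocd were lower. Of 14 fibroblast markers 13 were higher and 1 lower, with a sum of 19774 to 21291 CPM in KO and 2211 to 2385 CPM in WT, where Lum and Thy1 were at 0. Endothelial markers summed to 1.58 to 1.93 CPM in KO and 3.29 to 3.70 CPM in WT. Of the 8, 5 were at 0 in KO, and 2 of these, Tie1 and Cldn5, were at 0 in WT too. Of the 4 tested, 3 were lower (Pecam1, Kdr and Tek). The other, Vwf, was higher (0.946 CPM in KO, 0.152 CPM in WT, edgeR adjusted p = 0.0244). Epithelial and mesothelial markers summed to 9.94 to 13.4 CPM in KO and 79.6 to 87.5 CPM in WT, with Epcam and Krt18 at 0 in both. Of the 5 tested of 9, 3 were lower, led by Krt19 (8.39 CPM in KO, 59.3 CPM in WT) and Msln (0.220 CPM in KO, 20.1 CPM in WT), and 2 were higher, Wt1 (2.03 CPM in KO, 0.0545 CPM in WT) and Cdh1 (0.927 CPM in KO, 0.152 CPM in WT). Leukocyte markers summed to 74.7 to 89.6 CPM in KO and 74.8 to 85.7 CPM in WT, with Ptprc, Adgre1 and Itgam at 0 in both. These close sums hold opposite changes: of the 5 tested of 8, Cd14 (74.5 CPM in KO, 12.4 CPM in WT), Csf1r (3.29 CPM in KO, 0.157 CPM in WT) and Cd68 (2.23 CPM in KO, 1.08 CPM in WT) were higher. Cd74 (2.39 CPM in KO, 56.9 CPM in WT) and Lyz2 (0.213 CPM in KO, 8.54 CPM in WT) were lower. Lum, Thy1, Dpt, Mfap5, Cnn1, Wt1, Cdh1, Csf1r and Vwf were tested through their KO counts alone. Myocd, Kdr, Tek, Krt14, Msln and Lyz2 were tested through their WT counts alone. The direction of a call on any of these genes was thus set by the filter. The part of these marker differences in the results below was not tested.

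The ligand, both receptors and 4 binding protein genes were higher in KO than in WT, and Pappa was lower. Calls rest on the quasi-likelihood test of edgeR over all genes that passed a filter on low counts, with a Benjamini-Hochberg adjusted p under 0.05. Of the 10 genes, 8 passed the filter, and of these 7 were called higher and 1 lower in KO. That count is read against a comparison in which 69.3% of all 18732 tested genes were called, 35.1% higher and 34.2% lower, and 41.4% were called with at least a 2-fold difference. The KO and WT values did not overlap in any of the 8, as in 75.5% of tested genes. The median log2 fold change was 2.04 over the 8 genes and 0.03 over all tested genes. The genes were chosen with earlier results of these data known, so this contrast is a description only. Igfbp3 passed the filter through its KO counts alone. Igfbp2 and Igfbp5 did not pass it. Scaling by total counts moved the median of all tested genes to -0.10 and left each of these 8 directions as it was. In RNA of whole cultures, more cells that express a gene and more transcript per cell cannot be told apart.

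**Figure D1:**
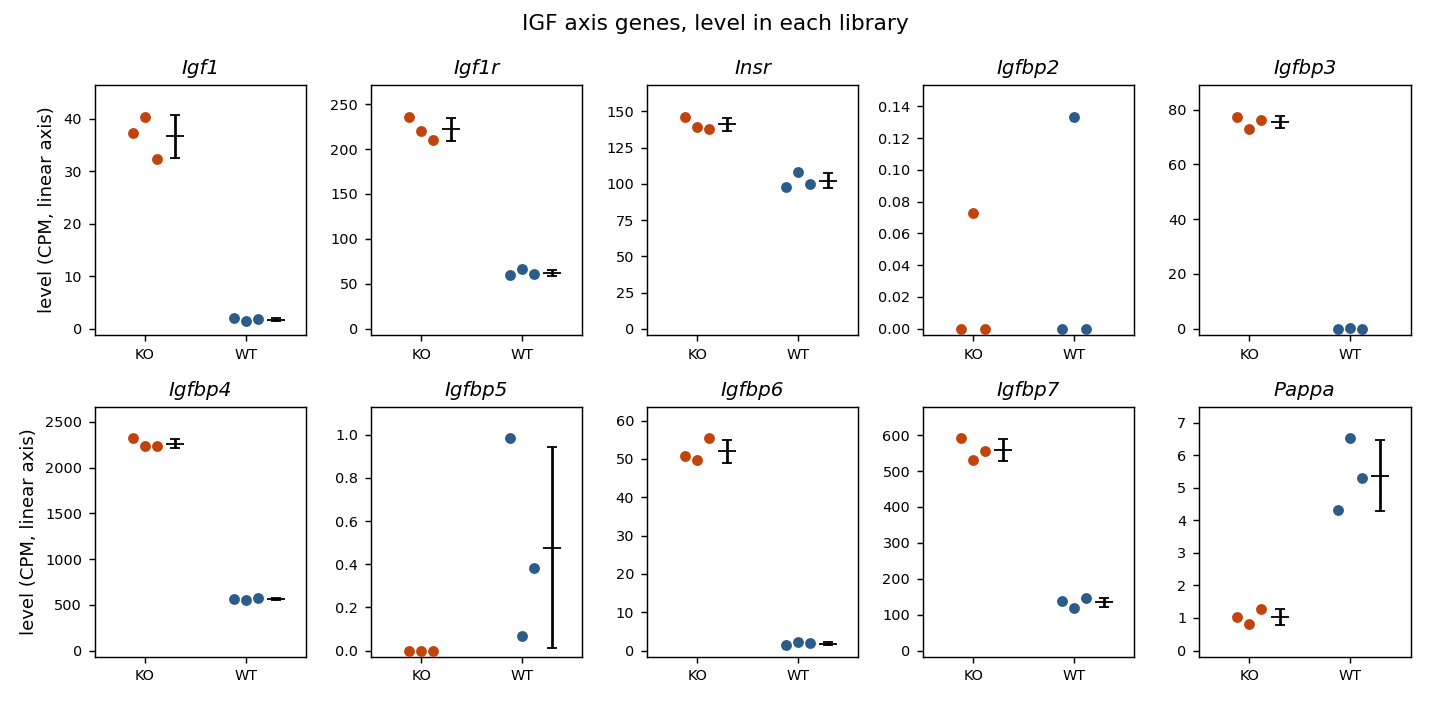
Level of each of the 10 genes in CPM (linear axis, one scale per panel) in 3 KO and 3 WT libraries; points are libraries, and the bar gives the mean and SD where no library of the group was at 0. KO points lie above WT points for Igf1, Igf1r, Insr, Igfbp3, Igfbp4, Igfbp6 and Igfbp7 and below them for Pappa; Igfbp2 and Igfbp5 stay under 1 CPM in every library.

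Igf1, on chromosome 10 (ENSMUSG00000020053), had 37.3, 40.3 and 32.2 CPM in the KO libraries, against 2.09, 1.38 and 1.78 CPM in the WT libraries. The lowest KO library thus lay far above the highest WT library. The difference was 20.9-fold (log2 fold change 4.38 ± 0.17 SE, edgeR adjusted p = 1.12e-07). In deposited FPKM, a unit scaled to transcript length and library size, Igf1 averaged 5.34 ± 0.62 in KO and 0.282 ± 0.102 in WT (SD, n = 3 each). An antisense gene, Igf1os, overlaps Igf1 in the annotation without sharing exons, and it had at most 6 counts in any library.

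The receptor genes rose by different amounts. Igf1r, on chromosome 7 (ENSMUSG00000005533), had 236, 220.0 and 209.99 CPM in KO and 59.6, 66.1 and 61.5 CPM in WT. It was 3.56-fold higher (log2 fold change 1.83 ± 0.06 SE, edgeR adjusted p = 5.63e-08). Insr, on chromosome 8 (ENSMUSG00000005534), had 146, 139 and 138 CPM in KO and 98.1, 108 and 100.1 CPM in WT. Its groups lay closer together, with a 1.38-fold rise (log2 fold change 0.47 ± 0.05 SE, edgeR adjusted p = 8.19e-05).

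The order of the receptor transcripts per length turned round between genotypes. Igf1r FPKM divided by Insr FPKM was 1.35, 1.37 and 1.34 in the KO libraries and 0.544, 0.497 and 0.556 in the WT libraries, so Igf1r was the more abundant in each KO library and Insr in each WT library. On the log2 scale of CPM the ratio averaged 0.65 ± 0.04 in KO and -0.71 ± 0.01 in WT (SD, n = 3 each). The difference of 1.36 on that scale (2.57-fold) gave p = 0.1 in a two-sided exact permutation test over libraries, the smallest p that 3 against 3 allows, and adjusted p = 0.1 over the 2 such tests run.

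Igfbp4 and Igfbp7 carried nearly all binding protein transcript in both genotypes, and both were about equally raised. Igfbp4, on chromosome 11 (ENSMUSG00000017493), encodes the binding protein that PAPP-A is best known to cut. It had 2317, 2233 and 2234 CPM in KO and 559, 548 and 571 CPM in WT, which is 4.04-fold higher (log2 fold change 2.02 ± 0.04 SE, with an edgeR adjusted p of 2.82e-09). By mean FPKM it ranked 123 of the 56393 genes in KO and 369 in WT. Igfbp7, on chromosome 5 (ENSMUSG00000036256), encodes a secreted matrix-associated protein related to the IGFBP family that binds IGFs weakly. It had 591, 530.2 and 557 CPM in KO and 138, 119 and 145 CPM in WT (4.17-fold, log2 fold change 2.06 ± 0.08 SE, edgeR adjusted p = 1.21e-07). An exon of Polr2b lies against Igfbp7 on the other strand, and no source used here gives the strand setting of the counting. Polr2b had 6406, 5916 and 6283 counts in KO and 8571, 7197 and 8365 counts in WT, beside 34643, 29157 and 32816 Igfbp7 counts in KO and 8702, 7135 and 9129 in WT. How far reads of one were counted for the other was not tested.

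Igfbp3 and Igfbp6 were low or barely counted in WT and clearly present in KO. Igfbp3, on chromosome 11 (ENSMUSG00000020427), encodes the main IGF carrier of blood plasma. It had 77.4, 72.9 and 76.2 CPM in KO. In WT it had 8 counts in replicate 2 (0.133 CPM) and 0 in the other libraries. The ratio of the mean CPM was 1699 (log2 fold change 10.71 ± 0.50 SE, edgeR adjusted p = 2.92e-06). The fitted value of a gene so near 0 depends on the prior count. Without WT replicate 2, WT was at 0, and 3 counts taken as the limit for the WT libraries left gave a 3172-fold difference. That value leaves out the only WT counts and lies above the ratio of 1699 over all libraries, so it is no minimum for the full comparison. Igfbp6, on chromosome 15 (ENSMUSG00000023046), encodes a binding protein that prefers IGF2 to IGF1. It had 50.7, 49.7 and 55.3 CPM in KO and 1.35, 2.13 and 1.94 CPM in WT (28.7-fold, log2 fold change 4.84 ± 0.17 SE, edgeR adjusted p = 6.17e-08).

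Igfbp2 and Igfbp5, which are neighbours on chromosome 1, were at or near 0. Igfbp5 (ENSMUSG00000026185), a matrix-binding member of the family, had 0 counts in all KO libraries and 62, 4 and 24 counts in WT (0.983, 0.0667 and 0.382 CPM). With 3 counts over the KO libraries as the limit, and a listed 0 read as no reads, it was at least 27.4-fold lower. Without WT replicate 1, which held most of the counts, it was at least 12.9-fold lower. Tested without the low-count filter it passed (edgeR adjusted p = 0.00442), with adjusted p between 4.86e-05 and 0.0207 over the alternatives that gave a value. Without WT replicate 1 or WT replicate 3 it did not pass the filter, and where it did pass, it passed through its WT counts alone. Igfbp2 (ENSMUSG00000039323) had 4 counts in KO replicate 2, 8 counts in WT replicate 2 and 0 in the other libraries, so no difference was detectable at this depth (edgeR adjusted p = 0.796 without the filter).

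Together the 6 binding protein genes reached 1032, 974 and 998 FPKM in KO and 256, 243 and 284 FPKM in WT. All KO sums lay above all WT sums, 3.84-fold on average (p = 0.1, two-sided exact permutation test, the smallest p possible, and adjusted p = 0.1 over the 2 such tests). The share of Igfbp4 in that sum was 51.8% ± 0.76 in KO and 57.8% ± 1.44 in WT (SD, n = 3 each), and the groups did not overlap. The share of Igfbp7 was 41.6% ± 0.80 in KO and 41.6% ± 1.58 in WT. Igfbp6 made up 3.91% ± 0.25 in KO and 0.570% ± 0.154 in WT. Igfbp3 made up 2.62% ± 0.03 in KO, and in WT it was listed at 0 in 2 libraries and made up 0.0210% in the other.

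**Figure D2:**
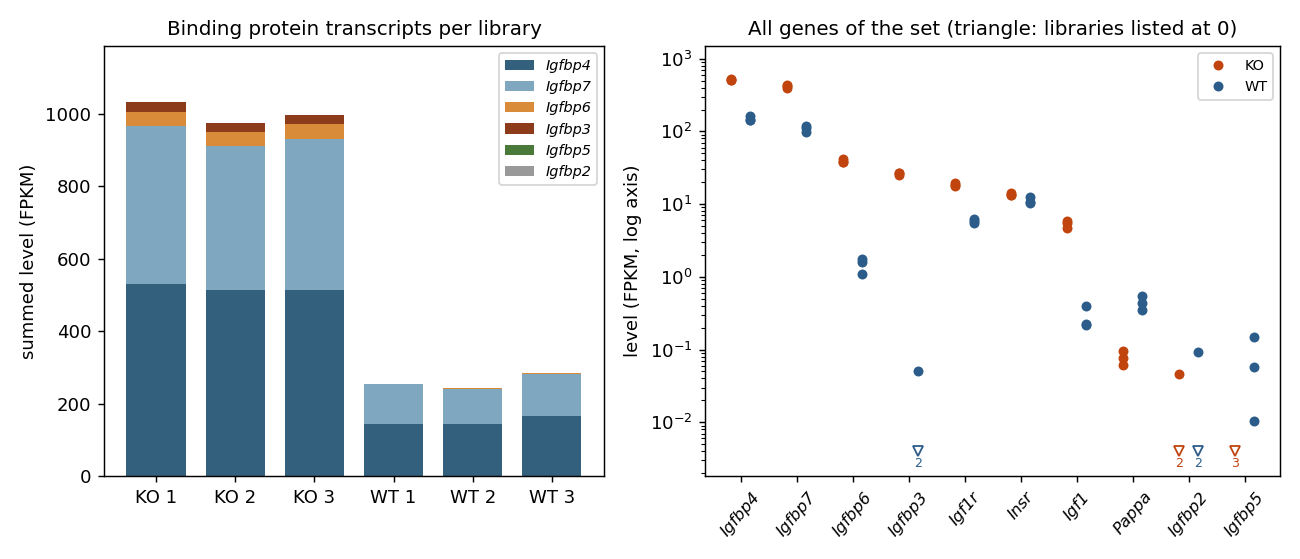
Left, deposited FPKM of the 6 binding protein genes stacked for each KO and WT library, with Igfbp4 and Igfbp7 filling most of every bar; right, FPKM of all 10 genes on a log axis, points being libraries and triangles the number of libraries listed at 0. KO sums reach 974 to 1032 FPKM and WT sums 243 to 284 FPKM, and the widest gaps between KO and WT points are at Igfbp3 and Igfbp6.

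Pappa was the member called lower. The gene lies on chromosome 4 (ENSMUSG00000028370) and had 1.02, 0.800 and 1.27 CPM in KO, against 4.31, 6.52 and 5.31 CPM in WT. Every KO library lay below every WT library, by 5.20-fold on average (log2 fold change -2.38 ± 0.26 SE, edgeR adjusted p = 5.35e-05). These are low levels, with 179 counts over the KO libraries and 997 over the WT libraries.

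Ordered by FPKM in KO, the genes ran Igfbp4, Igfbp7, Igfbp6, Igfbp3, Igf1r, Insr, Igf1, Pappa, Igfbp2 and Igfbp5. Neighbours in that order did not overlap over the 3 KO libraries down to Pappa and Igfbp2, while Igfbp2 and Igfbp5 did. In WT the order was Igfbp4, Igfbp7, Insr, Igf1r, Igfbp6, Pappa, Igf1, Igfbp5, Igfbp2 and Igfbp3. There Pappa at 0.353 to 0.548 FPKM overlapped Igf1 at 0.218 to 0.399 FPKM, and the last 3 genes overlapped their neighbours.

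The genes nearest to each in pattern were found by Euclidean distance of log2 CPM over the 6 libraries, each gene centred on its own mean, among 13684 named tested genes. Such a distance mostly reflects the size of the KO to WT difference. Igf1r lay nearest to Sesn3, which encodes a sestrin (distance 0.091), and to Igf2r (0.098), both of which belong to the lists described below. Igf1 lay nearest to Ccdc8 (0.31) and to the nuclear receptor gene Nr2f1 (0.36). Igfbp4 lay nearest to Wdr35 (0.051) and to Fstl1 (0.063), which encodes a secreted follistatin-related glycoprotein. Igfbp6 lay nearest to Abca9 (0.21) and Ptprn (0.31), Igfbp7 to the co-receptor gene Nrp2 (0.087) and to Arsk (0.11), and Igfbp3 to Samd5 (0.61) and Aox3 (0.81). Insr lay nearest to Tnrc6b (0.058) and Scaf1 (0.063), and Pappa to Rsg1 (0.33) and Ntf5 (0.37).

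Of 21 other genes that make, carry, clear or free IGFs, 15 were tested, and 11 were higher and 2 lower in KO, or 9 higher and 2 lower with scaling by total counts. That is 86.7% called, against 69.3% of all tested genes, with a median log2 fold change of 1.59 against 0.03 over all tested genes. Stc1, Stc2 and Igfals among them were tested through their KO counts alone. Igf2r, whose product clears IGF2, had 382, 382 and 365 CPM in KO and 101, 115 and 108 CPM in WT (3.48-fold, edgeR adjusted p = 3.7e-08). Ghr, the growth hormone receptor gene, had 219, 225 and 230.03 CPM in KO and 66.1, 58.3 and 60.8 CPM in WT (3.64-fold, edgeR adjusted p = 3.48e-08). Growth hormone acting on its receptor is a main inducer of Igf1 in liver.

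Lrp1, an endocytic receptor that also binds IGFBP3, was 4.97-fold higher, with 5331 ± 212 CPM in KO and 1073 ± 51.9 CPM in WT (SD, n = 3 each). The lysosomal protease gene Ctsd was 3.00-fold higher, the tissue plasminogen activator gene Plat 2.36-fold, and Adam12, a metalloprotease that can cut IGFBP3 and IGFBP5, 54.4-fold higher at 57.4, 45.3 and 47.3 CPM in KO against 0.872, 1.17 and 0.716 CPM in WT. Stc1 and Stc2 encode stanniocalcins, known in human cells as inhibitors of pappalysins. Stc2 had 114.7, 99.3 and 102 CPM in KO and 0.238, 0 and 0.0636 CPM in WT, while Stc1 had 25.6, 20.4 and 23.0 CPM in KO and, in WT, 5 counts that all came from replicate 3. Over all libraries the fitted difference of Stc1 was 795-fold. Leaving that library out, 3 counts as the limit in the remaining WT libraries gave 944-fold, which is no minimum for the full comparison. Htra1, a secreted serine protease, was lower, with 127, 126 and 113 CPM in KO and 239, 208 and 234 CPM in WT (edgeR adjusted p = 6.91e-06).

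Igf2, the second IGF ligand, scattered within both groups. It had 1.94, 1.73 and 0.119 CPM in KO and 0.0634, 1.62 and 1.18 CPM in WT, so the groups overlapped (edgeR adjusted p = 0.78, not called). Not tested because of low counts were Ins1, Ins2, Insrr, Igfbp1, Igfbpl1 and Adam28. Of these, Ins2, Igfbp1, Igfbpl1 and Adam28 were at 0 counts in all 6 libraries. That allows up to 0.0174 CPM in KO and 0.0161 CPM in WT (3 counts per group, counting error only). Such limits read a listed 0 as no reads, and how very low counts came to be listed was not tested. Ins1 had 5 counts in KO replicate 3 alone, and Insrr had 13 and 14 counts in WT replicates 2 and 3 alone.

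Downstream of the receptors the genes went both ways. Of 35 listed genes of IGF and insulin receptor signalling 34 were tested, 15 were higher and 12 lower, and the median log2 fold change was 0.07, or -0.06 with scaling by total counts. That is 79.4% called, against 69.3% of all tested genes. Irs4 was at 0 in all 6 libraries, and Grb10 was tested through its KO counts alone. Among adaptors, Irs1, the main docking protein of both receptors, had 50.9, 47.5 and 49.4 CPM in KO and 21.6, 18.9 and 21.2 CPM in WT (2.39-fold, edgeR adjusted p = 1.54e-06). Grb10, an adaptor that restrains both receptors, had 158, 155 and 147 CPM in KO, while in WT it had 9, 5 and 0 counts. Its relative Grb14 was 5.99-fold higher, with 30.0, 35.4 and 29.9 CPM in KO and 5.10, 5.70 and 5.10 CPM in WT (edgeR adjusted p = 1.77e-07).

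The kinase gene Akt1 had 385, 382 and 388 CPM in KO and 178, 172 and 172 CPM in WT (2.21-fold, edgeR adjusted p = 4.58e-08). Inppl1, which encodes a lipid phosphatase (SHIP2) acting on the product of PI3-kinase, was 2.40-fold higher. Below Akt, Rheb, the small GTPase that activates mTORC1, had 85.6, 84.4 and 86.1 CPM in KO and 223, 211 and 224 CPM in WT. Eif4ebp1, the translation repressor that mTORC1 phosphorylates, had 89.0, 93.7 and 87.8 CPM in KO and 332, 309.6 and 327 CPM in WT, and fell by 1.84 on the log2 scale (edgeR adjusted p = 1.61e-08). Ptpn11, the phosphatase SHP2 that links receptors to Ras, was at 198 ± 4.10 CPM in KO and 398 ± 7.79 CPM in WT (SD, n = 3 each).

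Of the forkhead factors that Akt holds out of the nucleus, Foxo1 was lower and Foxo3 and Foxo4 were higher. Foxo1 had 11.6, 10.04 and 10.3 CPM in KO and 62.1, 68.8 and 62.7 CPM in WT (log2 fold change -2.60 ± 0.09 SE, edgeR adjusted p = 4.94e-08). Foxo3 had 209.5, 195 and 185 CPM in KO and 86.5, 90.5 and 82.7 CPM in WT, and was higher (edgeR adjusted p = 5.17e-07). Foxo4 had 50.98, 55.1 and 52.01 CPM in KO and 30.9, 38.3 and 36.02 CPM in WT (1.503-fold, edgeR adjusted p = 0.000418). Of 14 genes known to be activated by FoxO factors, Insr among them, 10 were higher and 3 lower, with a median log2 fold change of 0.68. That is 92.9% called, against 69.3% of all tested genes, and Klf15, one of the 10, was tested through its KO counts alone. Sesn3 (3.66-fold) and Sesn1 (3.07-fold), which encode sestrins, Pik3ip1 (6.68-fold), an inhibitor of PI3-kinase, and the cyclin gene Ccng2 (4.99-fold) were higher. Txnip, which restrains glucose uptake, had 160.5, 158 and 127 CPM in KO and 816, 984 and 883 CPM in WT, and Gadd45a, a stress gene, had 89.95, 89.2 and 91.2 CPM in KO and 426, 365 and 359 CPM in WT. The list therefore did not move one way.

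Of the 3 genes of IGF2 mRNA-binding proteins, Igf2bp1 was 2.46-fold higher, with 69.2 ± 0.92 CPM in KO and 28.1 ± 1.29 CPM in WT (SD, n = 3 each; edgeR adjusted p = 3.21e-07). Igf2bp3 was lower, at 70.6 ± 3.21 CPM in KO and 84.6 ± 4.14 CPM in WT (SD, n = 3 each; edgeR adjusted p = 0.00494). Igf2bp2 overlapped between the groups, with 179.8, 238 and 182 CPM in KO and 193, 134 and 144 CPM in WT (edgeR adjusted p = 0.122).

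**Figure D3:**
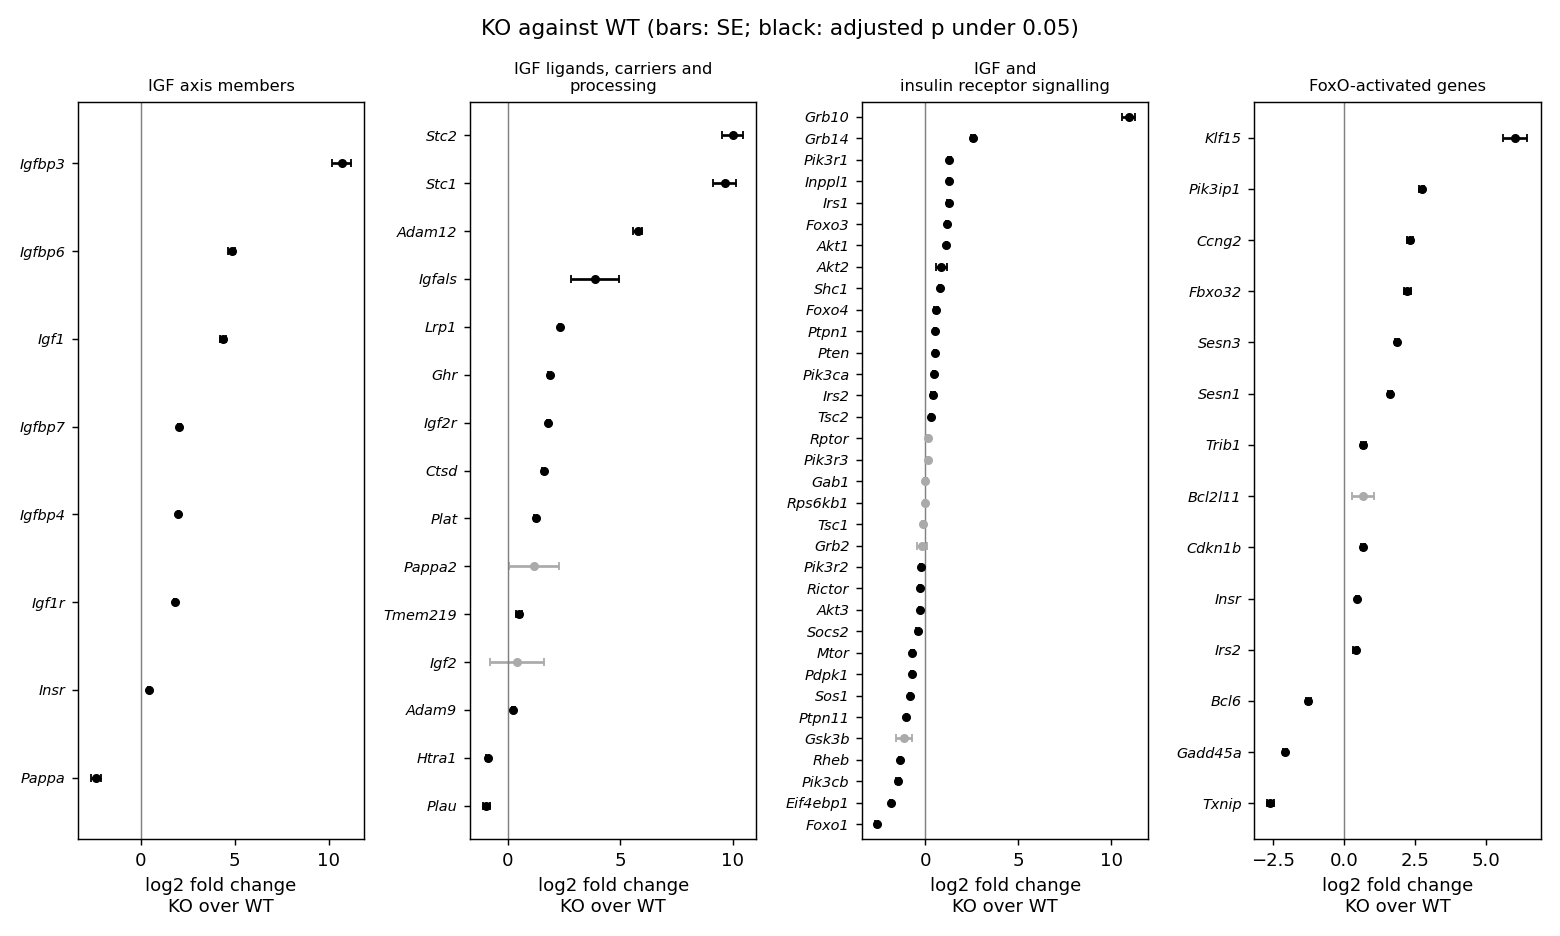
Log2 fold change of KO over WT with its SE for the tested genes of the IGF axis and of 3 linked lists (one panel and one axis scale each); black points passed an adjusted p of 0.05 in edgeR and grey points did not. The axis genes and the ligand and carrier list lie mostly right of 0, while signalling genes lie on both sides of it, with Grb10 far right and Foxo1 at the left end.

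The labels do not say whether the 3 libraries of a genotype came from separate cultures or animals. The p-values therefore reflect the spread among these libraries alone, part or all of which may be technical. The 8 tested genes kept their directions and calls in 15 other fits, among them those with 1 library left out. For Igfbp3, which passed the low-count filter through its KO counts alone, the filtered fits are no separate support.

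**Figure D4:**
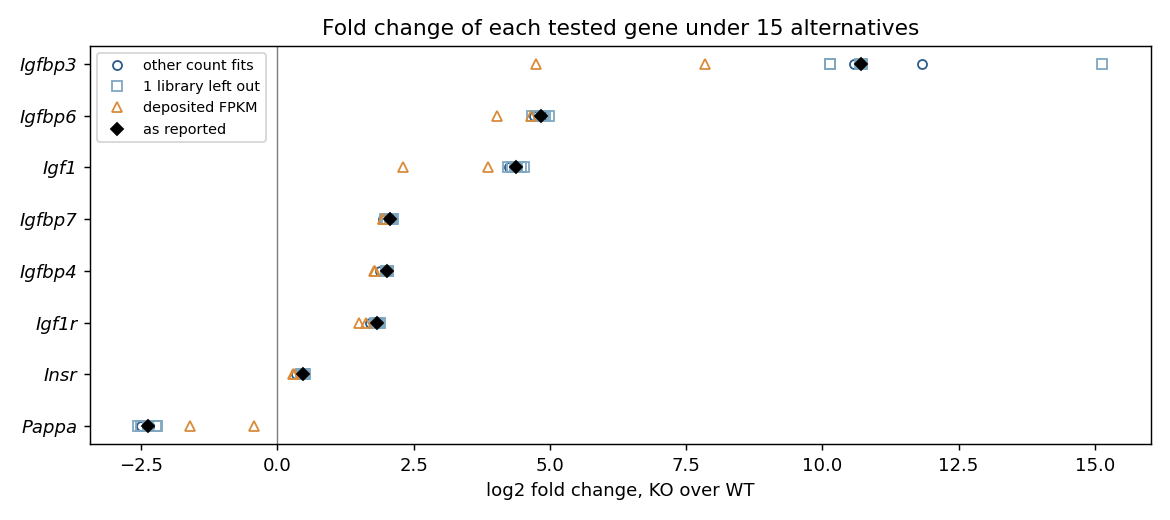
Log2 fold change of KO over WT for the 8 tested genes (rows) as reported (diamond), in other fits to the counts (circles), with 1 library left out (squares) and from deposited FPKM (triangles). No point crosses 0, and the Igfbp3 value runs from 4.74 to 15.14, the widest range of the 8. Igfbp3 passed the low-count filter through its KO counts alone.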

How the data were processed

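Per the labels, 3 KO and 3 WT libraries of total RNA were sequenced on Illumina protocols. Each gene, keyed by Ensembl ID, has unnormalized counts of reads and an FPKM value per library in the table the authors deposited, per the file headers. The submitters' processing notes name build GRCm39 and the tools HISAT2, CASAVA 1.8, edgeR and SAMtools 1.3.1, without their roles. Which program counted the reads, on which strand and against which annotation is not given in the sources used here. The deposited FPKM could not be had from the counts by one length per gene and one factor per library (18.1% to 27.3% of 7633 well-counted genes deviated by over 0.1 on the log2 scale between a pair of libraries), so they served for levels between genes and for an alternative test.

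Symbols came from GENCODE M21 (GRCm38) by Ensembl ID, with 55394 of 56393 matched. Counts were filtered with filterByExpr (18732 genes kept), scaled with TMM (factors 0.952 to 0.96 in KO, 1.04 to 1.06 in WT) and KO was compared with WT, without covariates, by robust quasi-likelihood F tests (edgeR 4.0.16, R 4.3.3). The SE is the log2 fold change divided by the root of F. CPM use the TMM-scaled library sizes. Alternatives used DESeq2 1.42.0, limma 3.58.1 (voom, and log2(FPKM + 0.1) or log2(FPKM + 1)), other scalings and filters, the replicate number as a block, and each library left out.

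The genes and lists were chosen with earlier results of these data known. The rule for naming list genes took up to 6 called genes with the smallest adjusted p, and those not tested. Stc1, Stc2, Htra1, Igf2, Irs1, Grb10, Grb14, Foxo3, Foxo4, Igf2bp2 and the marker genes named lie outside it: they were picked with their values in view. So were the genes of the closing paragraph on PI3-kinase and FoxO genes. Promoter windows and motif matches came from RefSeq sequences on GRCm38.p6.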

Additional observations from a re-analysis of the deposited data

How the results depend on the processing

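Each of the 8 tested genes of the IGF axis kept its direction and its call under all 15 alternatives. Insr came nearest to the threshold, with adjusted p between 1.39e-10 and 0.0249 over the fits and a log2 fold change between 0.28 and 0.51. The size of the change depended on the scale for low genes: Pappa lay between -2.56 and -0.42 on the log2 scale and Igf1 between 2.31 and 4.53, with the smallest values from log2(FPKM + 1). Igfbp3 lay between 4.74 and 15.14, the highest without WT replicate 2, which held its only WT counts. Igfbp3 passed the low-count filter through its KO counts alone, so the filtered fits are no separate support for its direction. Igfbp5 was called too, giving 9 genes, without a filter on low counts, with the Wald test of DESeq2, and without any 1 KO library or WT replicate 2. It entered each of these fits through its WT counts alone, so they are no separate support for its call. The KO to WT difference in summed binding protein level was 2.08 on the log2 scale from CPM, against 1.94 from FPKM (1.89 to 2.004 with 1 library left out), and the cause was not tested. The planned ratio of Igfbp5 to Igfbp2 was not run, because Igfbp2 was at 0 in 4 of 6 libraries.

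Same-numbered KO and WT libraries did not deviate together (correlations -0.024 to 0.018). Only the libraries of replicate 2 correlated best with their own number. No pairing by number was thus detected, but a check on 3 libraries per genotype cannot exclude one. With the replicate block 12233 genes were called, against 12980 without it, and the 8 axis genes stayed called. Of 958 refits of list genes outside the axis, 19 lost a call, 9 of them for Akt2 and 6 for Adam9, and 14 gained one, 7 of them for Gsk3b. Scaling by total counts gave 5902 genes higher and 7094 lower, against 6578 and 6402 with TMM, and a signalling list median of -0.06, against 0.07. With 1 library left out, 12364 to 12765 genes were called in all. Libraries at this depth leave genes under about 10 counts per library untested.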

Other observations

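Genes of the PI3-kinase step, which carries the signal from the receptors to Akt, differed among themselves. Pik3r1, the main regulatory subunit, had 231, 207 and 213 CPM in KO and 84.8, 90.4 and 87.2 CPM in WT (edgeR adjusted p = 1.73e-07). The catalytic subunit gene Pik3cb was lower, with 13.1, 11.4 and 11.5 CPM in KO and 30.7, 35.0 and 32.9 CPM in WT (edgeR adjusted p = 2.31e-06), while Pik3ca was 1.38-fold higher. Mtor was lower, at 69.7 ± 6.10 CPM in KO and 113 ± 4.26 CPM in WT (SD, n = 3 each; edgeR adjusted p = 3.91e-05). Akt2 had 127, 140.1 and 75.03 CPM in KO and 75.8, 44.4 and 65.8 CPM in WT. It was called higher (1.84-fold, edgeR adjusted p = 0.0481) although the groups overlapped, and the call was lost in 9 of 15 alternatives, with adjusted p between 0.00855 and 0.122.

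Among genes activated by FoxO factors, Fbxo32, a ubiquitin ligase gene of muscle atrophy, had 72.4, 67.8 and 75.3 CPM in KO and 15.2, 17.7 and 12.9 CPM in WT (4.71-fold, edgeR adjusted p = 5.98e-07). Klf15, a metabolic transcription factor gene, had 20.4, 26.2 and 28.1 CPM in KO and 0.143, 0.650 and 0.350 CPM in WT (edgeR adjusted p = 1.43e-05), and it passed the low-count filter through KO alone, with 9, 39 and 22 counts in WT. Bcl6, a transcriptional repressor gene, was lower, with 28.2, 25.7 and 24.1 CPM in KO and 65.4, 59.6 and 61.3 CPM in WT (edgeR adjusted p = 1.64e-06).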
